A study of Mus musculus with 6 samples.

Results

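The genes described here are 42 that encode the proteins which license replication origins, unwind and copy DNA at the fork and supply its nucleotides. They were chosen by name and sorted into 8 role groups. Of the 42, 41 had a probe set annotated to a single gene, 1 probe set each, and all 41 lay above the level of dim probe sets, so 41 of the 19092 genes tested are members. The exception was Mcm7, whose probe set also covers the microRNA genes Mir25 and Mir93.

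The samples were 6 RNA preparations of Lineage- c-Kit+ Sca1+ cells (LSK), a fraction of mouse bone marrow enriched for stem cells of the blood and for early multipotent progenitors. In the knockout group, 3 samples came from miR-21flox/flox:Mx1-Cre+ mice, in which the floxed microRNA gene had been deleted. In the control group, 3 samples came from miR-21flox/flox:Mx1-Cre- littermates. Both groups were given pIpC by intraperitoneal injection from an age of 4 to 6 weeks, 250 µg on alternate days for 7 doses, and marrow was taken 4 weeks later. The Mx1 promoter responds to interferon, which the double-stranded RNA pIpC induces, so that Cre acts in interferon-responsive cells and not in blood cells alone. Only knockout mice carried Cre, and effects of Cre and of the missing microRNA cannot be told apart. The titles call the samples biological replicates without saying how many mice each holds, so p-values measure the spread between these arrays.

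The microRNA that the knockout removes is shown because it defines the groups, from RefSeq (GRCm38.p6, chr11:86584120-86584141, minus strand), with its seed, bases 2 to 8, in capitals:
mmu-miR-21a-5p: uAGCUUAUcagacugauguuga
The probe set annotated to its gene, Mir21a, also covers the host gene Vmp1. It read 5.65, 5.64 and 5.76 on the knockout arrays, against 5.65, 5.60 and 5.63 on the control arrays. The groups overlapped, and the probe set cannot report the deletion on its own, so the labels were not checked through it.

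Replication begins at origins bound by the origin recognition complex (ORC). In G1, CDC6 and CDT1 load the ring of MCM2 to MCM7 there, a step called licensing, and in S phase CDC45, the GINS complex and MCM10 turn the ring into an active helicase behind which polymerases copy both strands. Most of these genes are textbook targets of E2F transcription factors, which cyclin and CDK activity releases from RB proteins late in G1. Most stem cells in adult marrow are quiescent, while the multipotent progenitors of the LSK fraction cycle more often.

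Of the 41 members tested, 24 rose in knockout LSK cells, 1 fell and 16 did not pass (limma, Benjamini-Hochberg adjusted p under 0.05 over all genes, 31.1% of which passed in either direction). The share that rose was 58.5%, against 19.1% of all genes, and the share that fell was 2.44%, against 12% of all genes. Changes were above 0 for 38 of 41 members (92.7%) and for 65.1% of all genes. They were small. The median over members was 0.22 on the log2 scale (1.17-fold), the median over all genes was 0.07, and among the members that passed the median size was 0.32. Knockout arrays lay wholly above control arrays for 27 of 41 members (65.9%, against 30.9% of all genes) and wholly below for Orc1 alone (17.1% of all genes, and 48% in either direction). Only Gins3 and Gins1 rose by a fold of at least 1.5, which 1.77% of all genes did, while no member and 2.35% of all genes fell that far. Gins1 lay at the cut itself, at 1.50004-fold. Its log2 change of 0.59 ran from 0.48 to 0.69 over 14 alternative fits. Leaving out knockout replicate 1 lowered the members that rose to 16, the fewest of any array left out, and Orc1 fell in each of those fits. Fewer cells of a type and less RNA per cell cannot be told apart in such bulk samples.

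**Figure D1:**
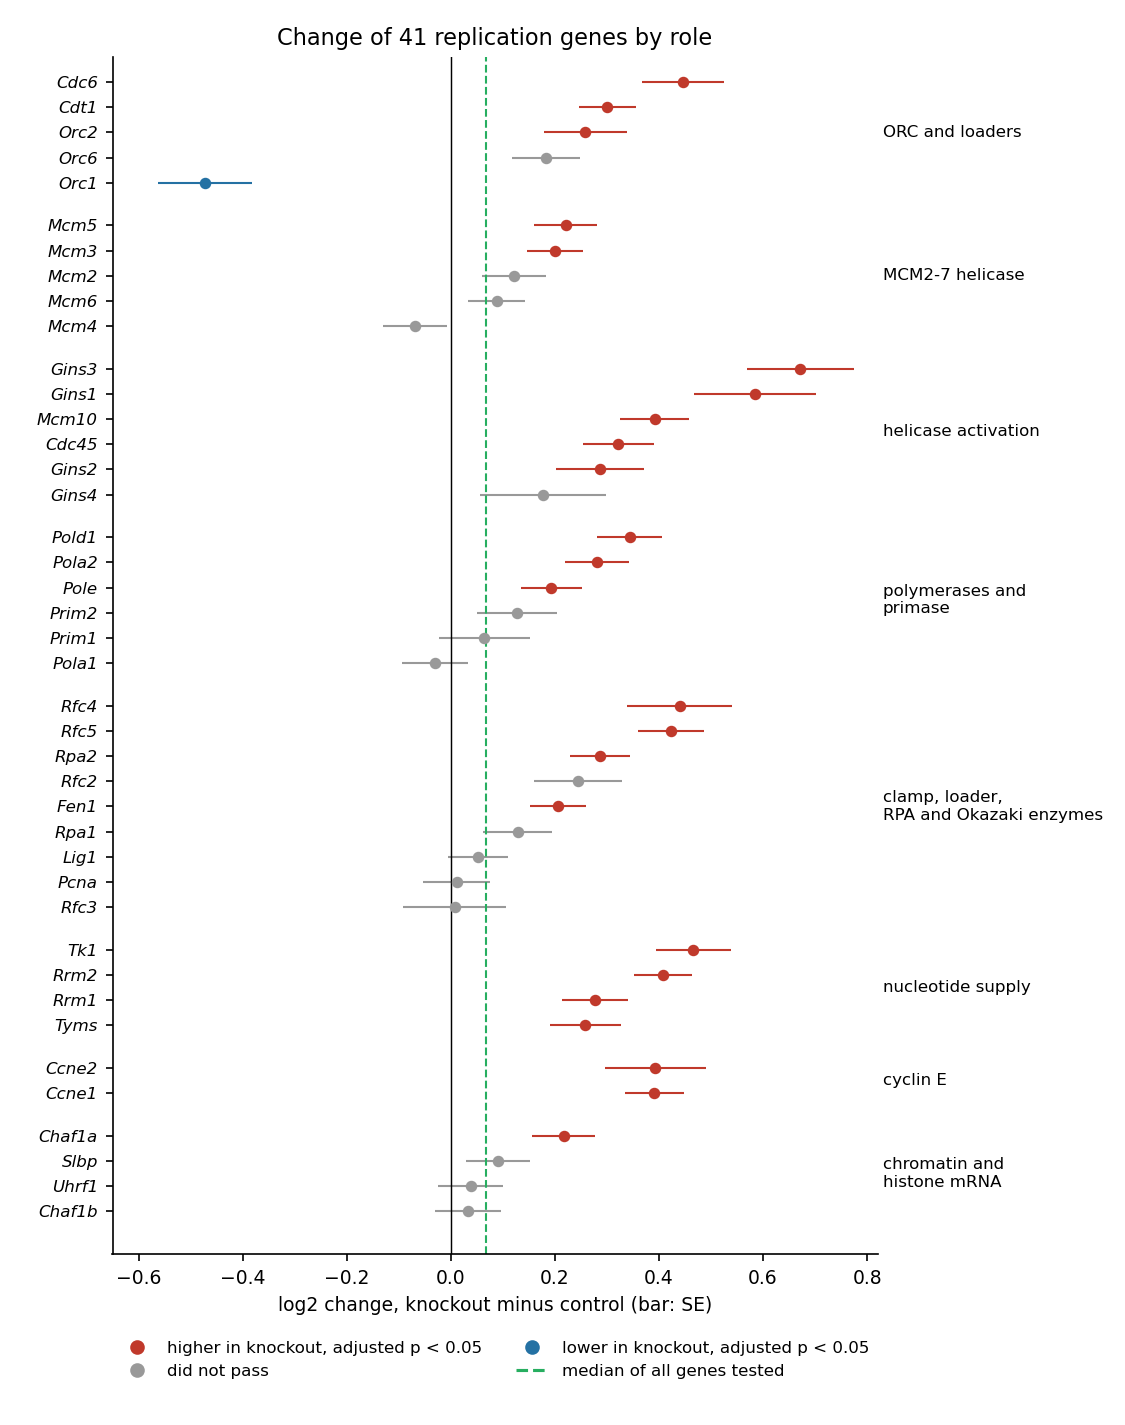
The log2 change (knockout minus control, horizontal axis) of the 41 members is plotted with its SE, by role group and in falling order within each. Red points rose, grey points did not pass, the blue point (Orc1) fell, and the dashed line marks the median of all genes, 0.07.

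Promoter sequences are shown here because the E2F element was found in some of the members. The choice by name used no sequence, but most of these genes are textbook E2F targets. The presence of the element is thus not independent of the choice. RefSeq windows (GRCm38.p6) from 250 bases before to 50 bases after the start were held for 34 of the 42 genes, 40 windows in all. The E2F element was searched as 4 octamers, TTTCCCGC, TTTGGCGC, TTTCGCGC and TTTGCCGC, on both strands, where matches may overlap each other. It was present in 13 of the 40 member windows (32.5%), against 2.85% of 21263 windows of all protein-coding genes. Among the G2/M genes of mitosis it was in 1 of 36 windows (2.78%). Those held instead the CHR-type hexamer TTTGAA in 75% of windows, against 10% of member windows and 15.99% of all windows. The pentamer CCAAT, searched the same way, was in 62.5% of member windows, 80.6% of G2/M windows and 38.2% of all windows. Whether the octamers go with the change was not tested, and so few windows, some of the same gene, cannot decide it. The octamers were in 6 of 22 windows of members that rose (27.3%, from 6 of 20 genes). For members that did not pass, they were in 5 of 15 windows (33.3%, from 5 of 12 genes). A match describes the letters and is not a binding site.

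The 120 bases before the start are given for the member that rose most, for the one that fell and for the one with the most octamer matches, which did not pass. Capitals mark the octamers, read on either strand. The first is at chr8:95633439-95633558, plus strand, the second at chr4:108579334-108579453, plus strand, and the third at chr1:128359706-128359825, minus strand.
Gins3: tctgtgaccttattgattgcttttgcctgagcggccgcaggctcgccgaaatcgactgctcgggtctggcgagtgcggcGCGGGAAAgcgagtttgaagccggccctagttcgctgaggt
Orc1: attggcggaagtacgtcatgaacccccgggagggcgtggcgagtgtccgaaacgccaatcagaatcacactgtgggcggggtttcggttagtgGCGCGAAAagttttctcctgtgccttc
Mcm6: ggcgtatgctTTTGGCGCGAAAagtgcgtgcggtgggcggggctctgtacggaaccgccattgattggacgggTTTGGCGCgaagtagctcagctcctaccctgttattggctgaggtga
The octamer of Gins3 begins 41 bases before the start and that of Orc1 27 bases before it. Mcm6 has 3 matches, beginning 110, 106 and 47 bases before the start, and the first pair overlaps. The gene that rose most and the gene that fell thus both hold an octamer close to the start.

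In the ORC and loader group, 3 of 5 rose and 1 fell (median 0.26). The shares were 60% and 20%, against 19.1% and 12% of all genes, and the share that fell rests on 1 gene. Orc1, an ATP-binding subunit that marks origins in G1 and is degraded in S phase in human cells, was the only member that fell. Its log2 values were 4.29, 4.01 and 4.28 on the knockout arrays, against 4.78, 4.57 and 4.64 on the control arrays. The groups did not overlap, and the change was -0.47 ± 0.09 (SE, limma adjusted p = 0.00486), a 1.39-fold lower level. Cdc6, the ATPase that works with ORC to load MCM rings, had 5.95, 5.72 and 5.98 in the knockout, against 5.44, 5.38 and 5.49 in control. Every knockout array exceeded every control array, with a change of 0.45 ± 0.08 (SE, limma adjusted p = 0.00312).

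Cdt1, which brings the MCM ring to ORC, rose by 0.30 ± 0.06 (SE, limma adjusted p = 0.00401). Gmnn, which encodes the CDT1 inhibitor geminin and is not a member, rose as well, by 0.44 ± 0.09 (SE, adjusted p = 0.00688). Orc2, a core subunit, rose by 0.26, but its call was lost on leaving out any array other than knockout replicate 2 (limma adjusted p up to 0.123). It was lost too with no filter on dim genes and with each array centred on its median. Orc6 was at 0.18 (limma adjusted p = 0.0638). In the list of other licensing genes, Mcmbp, which binds MCM subunits, rose by 0.22, and Mcm9, a relative of the MCM ring genes with a role in DNA repair, fell by 0.27. Both calls of that pair depended on single arrays, for Mcmbp knockout replicate 1 or 3 and for Mcm9 knockout replicate 2 or control replicate 1. The ORC subunits Orc3 and Orc4 were at 0.03 and -0.02 and did not pass.

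The subunits of the MCM ring itself changed little. Measured alone were 5, and 2 of these rose (40%, against 19.1% of all genes). The median of the ring genes was 0.12, and 0.05 after a second quantile normalization. Mcm5 had log2 values of 8.38, 8.47 and 8.34 in the knockout, against 8.16, 8.23 and 8.14 in control. The groups did not overlap and the change was 0.22 ± 0.06 (SE, limma adjusted p = 0.0242). Mcm3 rose by 0.20 (limma adjusted p = 0.0207). Both calls were lost after a second quantile normalization, to changes of 0.11 for Mcm5 and 0.09 for Mcm3, and when single arrays were left out. For Mcm5 these were knockout replicate 1 or 2 and control replicate 1 or 3, and for Mcm3 knockout replicate 1 or 3 and control replicate 2 or 3, so that each array in turn ended at least 1 of the pair.

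Mcm4 had the lowest change of the ring genes, with 7.08, 7.08 and 7.09 in the knockout and 7.24, 7.14 and 7.08 in control. The highest knockout array lay above the lowest control array, and the change of -0.07 ± 0.06 did not pass (SE, limma adjusted p = 0.416). Mcm2 was at 0.12 and Mcm6 at 0.09, neither past the threshold. The probe set shared by Mcm7, Mir25 and Mir93 read 7.04, 7.07 and 7.05 in the knockout, against 6.92, 6.84 and 6.84 in control. That difference of 0.19 missed the threshold when limma was fitted over every probe set past the dim filter (adjusted p = 0.0527), and which of the 3 genes it reports is not settled by the annotation.

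**Figure D2:**
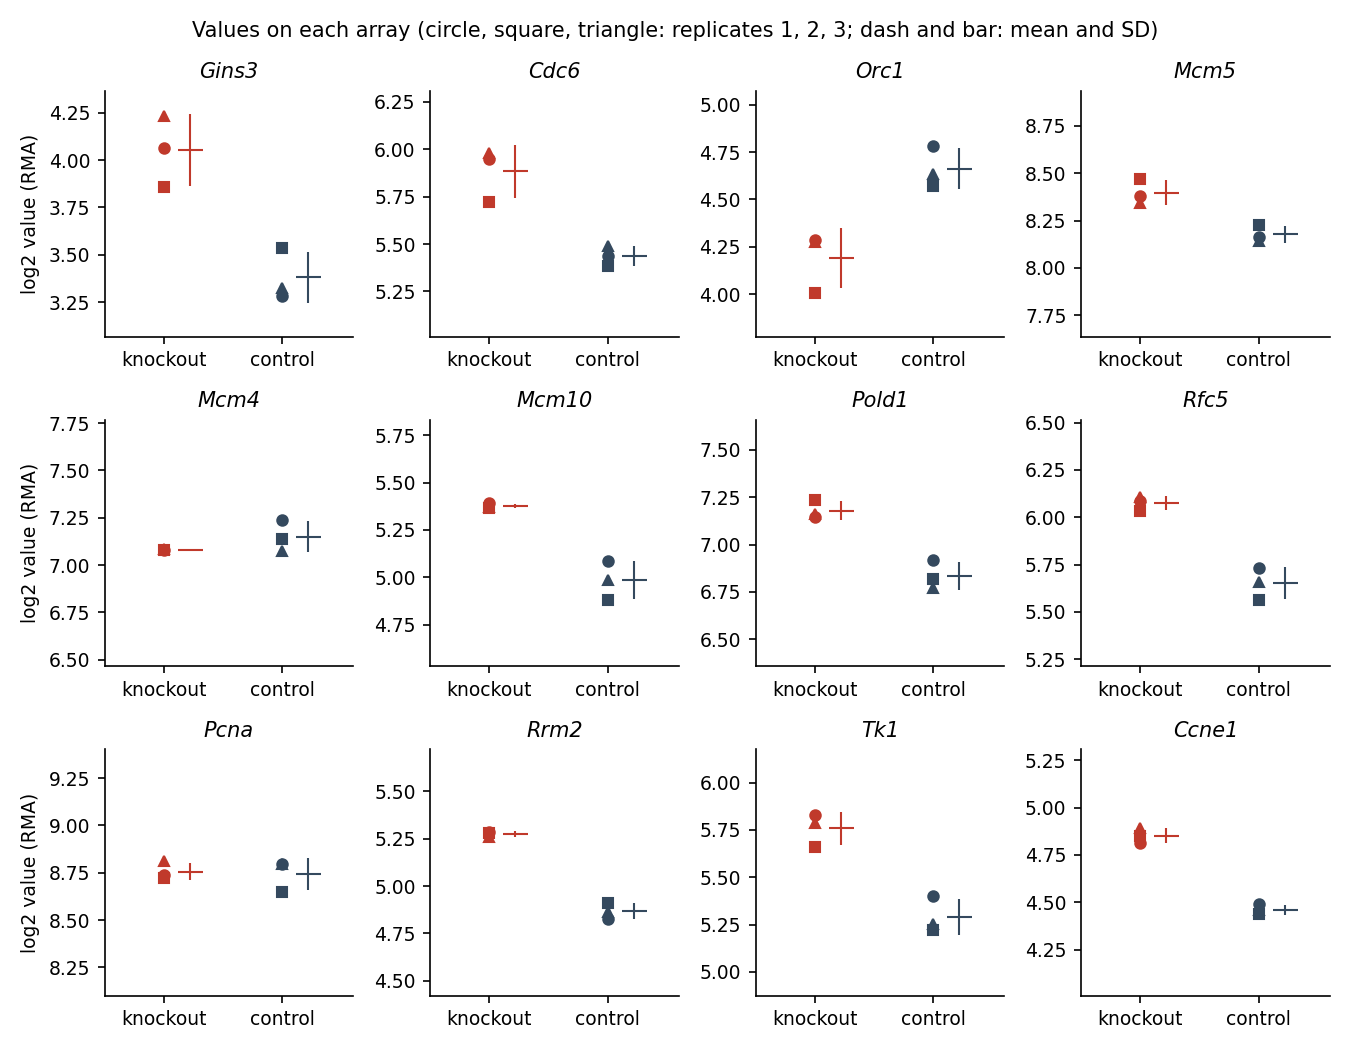
Log2 values of 12 members are plotted for each array, knockout in red at left and control in dark grey at right, with the mean and SD beside them. All panels span the same range of 1.3 log2 units. The groups are apart for 10 of the 12 genes, against 48% of all genes in either direction, and overlap for Mcm4 and Pcna. Among those apart, Orc1 is the only one lower in the knockout. The 12 are a selection. Over all 41 members the knockout arrays lay wholly above for 27 and wholly below for 1.

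Among the factors that turn the loaded ring into a working helicase, 5 of 6 rose (83.3%, against 19.1% of all genes) and none fell. Their median was 0.36, and its difference from the ring was not tested. Gins3, a subunit of the 4-part GINS complex, had log2 values of 4.06, 3.86 and 4.24 in the knockout, against 3.28, 3.54 and 3.32 in control. Its change of 0.67 ± 0.10 (SE, 1.59-fold, limma adjusted p = 0.00165) was the largest of the members, and the lowest knockout array exceeded the highest control array. Gins1 had 6.33, 6.07 and 6.46 in the knockout, against 5.83, 5.49 and 5.78 in control, and rose by 0.59 ± 0.12 (SE, 1.5-fold, limma adjusted p = 0.00584).

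Mcm10, which joins the helicase and recruits polymerase alpha, read 5.39, 5.37 and 5.37 in the knockout, against 5.09, 4.88 and 4.99 in control. The knockout arrays were close together and above all control arrays (0.39 ± 0.07, SE, limma adjusted p = 0.00256). Cdc45 rose by 0.32. Gins2 rose by 0.29 (limma adjusted p = 0.0299), a call that median centring ended, as did leaving out knockout replicate 1 or 3 or control replicate 2 or 3. Gins4 read 7.09, 6.66 and 7.02 in the knockout, against 6.87, 6.57 and 6.81 in control. Its groups overlapped through knockout replicate 2, and the change of 0.18 did not pass (limma adjusted p = 0.287), although it did without that array (0.31, adjusted p = 0.0453).

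A list of origin firing and fork checkpoint genes was read as well. Only some of its genes act upstream of this step, so its counts do not describe that step alone. In it 8 of 17 rose (47.1%, against 19.1% of all genes) and none fell (median 0.16). The kinase Cdc7, which phosphorylates the MCM ring, rose by 0.22 (limma adjusted p = 0.0260, a call that each of knockout replicates 1 and 3 and control replicates 2 and 3 ended when left out), and Dbf4, its activating subunit, was at 0.06 and did not pass. The largest changes were those of Rad1, at 0.68, and Rad9a, at 0.64, which encode 2 parts of the checkpoint clamp. Timeless, a fork protection gene, rose by 0.31 and Wdhd1, which ties polymerase alpha to the helicase, by 0.29. The checkpoint kinase gene Chek1 was at -0.10 and did not pass. Leaving out knockout replicate 1 lowered the 8 genes that rose to 5.

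Polymerase and primase genes did not all pass, and differences between subunits were not tested. Of 6 genes for polymerases and primase, 3 rose (50%, against 19.1% of all genes) and none fell (median 0.16). Pold1, the catalytic subunit of polymerase delta, read 7.14, 7.23 and 7.16 in the knockout, against 6.92, 6.82 and 6.77 in control. The groups were apart, with a change of 0.34 ± 0.06 (SE, limma adjusted p = 0.00393). Pola2, the regulatory subunit of polymerase alpha, rose by 0.28 ± 0.06 (SE, limma adjusted p = 0.00930), whereas its catalytic partner Pola1 read 5.70, 5.53 and 5.63 in the knockout and 5.65, 5.64 and 5.66 in control. The knockout arrays of Pola1 lay on both sides of the control arrays, and its change of -0.03 did not pass and was above 0 after a second quantile normalization. The primase genes Prim1 and Prim2, whose products start each new strand, were at 0.06 and 0.13 and did not pass. Pole, the catalytic subunit of polymerase epsilon, rose by 0.19 (limma adjusted p = 0.0347), a call lost with each array centred on its median and without any array other than control replicate 2.

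Among the 9 genes of the sliding clamp, its loader, the single-strand binding protein RPA and the enzymes that finish Okazaki fragments, 4 rose and none fell (median 0.21). The share that rose was 44.4%, against 19.1% of all genes. Some clamp loader genes passed and others did not, and differences between them were not tested. Rfc4 read 6.73, 6.54 and 6.65 in the knockout, against 6.30, 5.97 and 6.34 in control, and Rfc5 read 6.09, 6.04 and 6.10 against 5.73, 5.56 and 5.66 in control. Both sets of arrays were apart, with changes of 0.44 ± 0.10 for Rfc4 and 0.42 ± 0.06 for Rfc5 (SE, limma adjusted p = 0.0110 and 0.00150). Rfc3 read 4.39, 4.17 and 4.56 in the knockout and 4.43, 4.24 and 4.42 in control, overlapping throughout, with a change of 0.01 ± 0.10 (SE) that turned negative under centring on array medians.

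Rfc2, at 0.24, did not pass (limma adjusted p = 0.0550, although 0.0493 with the stricter filter on dim genes). Pcna, the clamp that holds polymerases on DNA, read 8.74, 8.72 and 8.81 in the knockout and 8.79, 8.65 and 8.79 in control. The groups overlapped, and its change of 0.01 ± 0.06 (SE, limma adjusted p = 0.907) turned negative under median centring and a second quantile normalization. The RPA subunit Rpa2 rose by 0.29 ± 0.06 (SE, limma adjusted p = 0.00625), and Rpa1, the large subunit, was at 0.13 without passing. Fen1, the flap nuclease, rose by 0.21, although not without knockout replicate 1 or 3 or control replicate 2. Lig1, the ligase that seals the nicks, was at 0.05 and did not pass.

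A further list of polymerase, clamp loader and Okazaki genes gave 9 higher, 1 lower and 9 not passing of 19 (median 0.25). The share that rose was 47.4%, against 19.1% of all genes. Rnaseh2a (0.44) and Rnaseh2c (0.42), subunits of the enzyme that removes RNA from DNA, rose, as did Pold4 (0.30), a small subunit of polymerase delta. Top1, the topoisomerase that relaxes DNA ahead of forks and of RNA polymerase, fell by 0.57 ± 0.08 (SE, limma adjusted p = 0.00113).

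All 4 nucleotide supply genes rose, against 19.1% of all genes, with a median of 0.34. Knockout arrays lay wholly above control arrays for each of them, against 30.9% of all genes. Tk1, the thymidine salvage kinase, read 5.83, 5.66 and 5.78 in the knockout, against 5.40, 5.22 and 5.25 in control, a change of 0.47 ± 0.07 (SE, limma adjusted p = 0.00175). Rrm2, the regulated small subunit of ribonucleotide reductase, read 5.29, 5.28 and 5.26 in the knockout, against 4.83, 4.91 and 4.86 in control. It had the smallest p of all members (0.41 ± 0.06, SE, limma adjusted p = 9.00e-04), and its arrays were tight within each group. Rrm1, the large subunit, rose by 0.28 ± 0.06 (SE, limma adjusted p = 0.0106). Tyms, which makes thymidylate, read 6.70, 6.61 and 6.79 in the knockout, against 6.51, 6.37 and 6.45 in control. Its rise of 0.26 (limma adjusted p = 0.0195) needed each of knockout replicates 1 and 3 and control replicate 2.

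Nucleotide synthesis genes outside the members gave 10 higher, 1 lower and 9 not passing of 20 (median 0.16). The share that rose was 50%, against 19.1% of all genes. Shmt2, which feeds mitochondrial one-carbon units, rose by 0.52 ± 0.06 (SE, limma adjusted p = 3.96e-04). Nme1 (0.41), Mthfd2 (0.35) and the pyrimidine enzyme Dhodh (0.30) rose too. Samhd1, whose product degrades deoxynucleotides, fell by 0.21 (limma adjusted p = 0.0244, which needed each of knockout replicates 1 and 2 and control replicate 2).

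Both cyclin E genes, whose products activate CDK2 at the G1/S boundary, rose, against 19.1% of all genes. Ccne1 read 4.81, 4.85 and 4.89 in the knockout, against 4.49, 4.44 and 4.46 in control (0.39 ± 0.06, SE, limma adjusted p = 0.00117). Ccne2 read 4.62, 4.34 and 4.75 in the knockout, against 4.17, 4.15 and 4.22 in control (0.39 ± 0.10, SE, limma adjusted p = 0.0151). Knockout arrays lay wholly above control arrays for both, against 30.9% of all genes, with a wider spread of the knockout arrays for Ccne2.

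Their regulators included genes that rose and genes that fell. In the list of E2F, RB and G1 CDK control, 9 of 30 rose and 3 fell (median 0.10). The shares were 30% and 10%, against 19.1% and 12% of all genes. Skp2, which marks the CDK inhibitor p27 for degradation, rose by 1.05 ± 0.07 (SE, limma adjusted p = 1.65e-05), and Myc rose by 0.81. Cdkn1a, which encodes the CDK inhibitor p21, fell by 1.08 ± 0.06 (SE, limma adjusted p = 4.79e-06). Among E2F genes, the activator E2f2 rose by 0.46 and the repressor E2f8 by 0.44, while the activators E2f1 (-0.09) and E2f3 (0.06) did not pass. Ccna2, the S phase cyclin, rose by 0.47, and its partner kinase gene Cdk2 was at 0.01 without passing. Leaving out control replicate 2 lowered the 9 genes that rose to 5.

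Chromatin assembly and histone mRNA genes gave 1 higher of 4, with a median of 0.06 (0.10 after a second quantile normalization). The share that rose, 25%, was near the 19.1% of all genes. Chaf1a, the large subunit of the histone chaperone CAF-1, read 6.34, 6.25 and 6.36 in the knockout, against 6.15, 6.05 and 6.10 in control. It rose by 0.22 (limma adjusted p = 0.0246), a call that needed each of knockout replicates 1 and 3 and control replicates 2 and 3. Chaf1b, the middle subunit, read 5.82, 5.73 and 5.83 in the knockout and 5.74, 5.71 and 5.84 in control. Its groups overlapped and the change of 0.03 did not pass. Uhrf1, which brings maintenance methylation to new DNA, was at 0.04 and also did not pass, with a value just under 0 after a second quantile normalization. Of 12 other chromatin genes coupled to replication, Asf1b (0.36) alone rose (8.33%, against 19.1% of all genes) and 11 did not pass. After a second quantile normalization 4 rose.

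Slbp, the protein that binds the stem-loop of replication-dependent histone mRNAs, was at 0.09 ± 0.06 (SE, limma adjusted p = 0.286). The histone transcripts themselves rose. Among 22 replication-dependent histone genes, 19 rose (86.4%, against 19.1% of all genes) and 1 fell (2 without knockout replicate 3). Their median was 0.65. H3c3 rose by 1.40 ± 0.10 (SE, limma adjusted p = 2.69e-05), H2bc12 by 1.11 and H1f1 by 0.89, and the linker histone H1f2 fell by 0.72. Histone genes are near-identical copies, so probes may read several of them and the values of single histone genes are uncertain. Most of these mRNAs lack a poly(A) tail, and the deposited values came from total RNA.

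Set beside each other on the log2 scale, the medians of the role groups ran from 0.06 for chromatin and histone mRNA and 0.12 for the MCM ring, through 0.16 for polymerases, 0.21 for clamp and Okazaki genes and 0.26 for ORC and loaders, to 0.34 for nucleotide supply, 0.36 for helicase activation and 0.39 for cyclin E. No test of the differences between role groups was made. After each gene was centred on its mean over the 6 arrays, every control array was below 0 in all 8 role groups. The knockout arrays were above 0, except knockout replicate 2 in the ORC and loader group. The lowest array within each group was the same in most roles, although the spread differed between roles. Knockout replicate 2 was the lowest knockout array in 7 of the 8 role groups and control replicate 2 the lowest control array in 6. For the MCM ring, knockout replicate 2 was instead the highest knockout array (0.068, against 0.057 and 0.044).

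**Figure D3:**
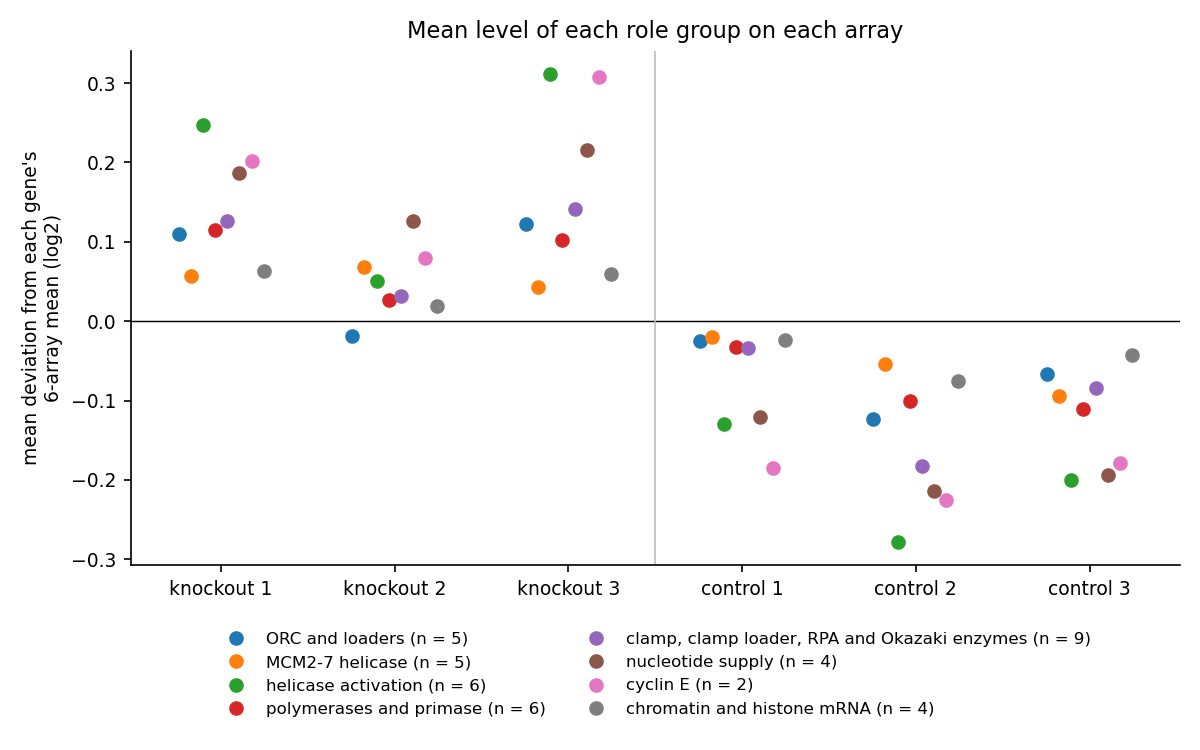
For each array, the mean deviation of a role group's genes from their 6-array means is plotted on the log2 scale, 1 colour a role group, with knockout arrays at left and control arrays at right. Helicase activation spans the widest range, from 0.31 on knockout replicate 3 to -0.28 on control replicate 2, and chromatin and MCM genes the narrowest.

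The mitosis genes, the next phase of the cycle, are the closest comparison. Of 37 G2/M genes, 30 rose (81.1%, against 19.1% of all genes) and none fell. Their median was 0.41, against 0.22 over the replication members. The largest changes were those of Aurka (0.88), Kif22 (0.88), Cdc20 (0.83) and Plk1 (0.81), all genes of spindle and mitotic exit, and each exceeded the largest change of a member, 0.67 for Gins3. The proliferation marker Mki67 rose by 0.24 (limma adjusted p = 0.0269), but a second quantile normalization put it at 0.14 without passing, and its call needed each of knockout replicates 1 and 3 and control replicates 1 and 2. Cenpa was the lowest at -0.07 and did not pass. Over the 6 lists of other replication genes together, 39 of 104 rose (37.5%, against 19.1% of all genes), 6 fell and the median was 0.14.

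**Figure D4:**
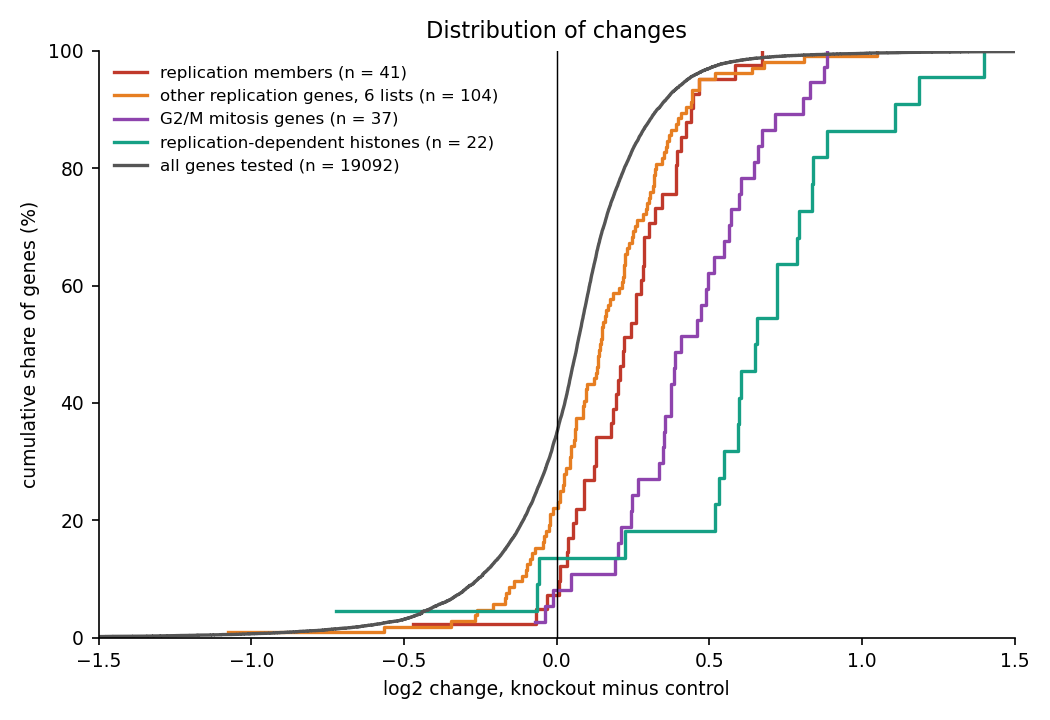
The cumulative share of genes (percent) is plotted against the log2 change, knockout minus control, for the members, the other replication genes, the G2/M genes, the replication-dependent histones and all genes. At their medians the curves order from all genes (0.07) through other replication genes (0.14), members (0.22) and G2/M genes (0.41) to histones (0.65).

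The arrays were alike in overall level, with medians between 1.89 and 1.95, and correlations of 0.995 to 0.997 within groups and 0.987 to 0.991 between them. Markers of some cell types moved with the groups. Of all genes, 19.1% rose and 12% fell. Nearer those shares were the B cell list (25% rose, 25% fell) and the T and NK cell list (25% rose, none fell). In the monocyte, macrophage and dendritic cell list 33.3% rose and 16.7% fell. All 10 markers of granulocyte-monocyte progenitors rose (median 1.13), and the log2 of their summed level ran from 11.49 to 11.51 in the knockout, against 10.12 to 10.22 in control. Of 10 neutrophil markers 9 rose (8.83 to 9.02 in the knockout, against 7.54 to 7.80 in control), and of 9 megakaryocyte-erythroid progenitor markers 7 rose (8.48 to 8.56, against 8.12 to 8.23 in control). Of 9 stem and multipotent progenitor markers 8 fell, among them Kit by 0.46, and Slamf1 rose (10.20 to 10.22 in the knockout, against 10.56 to 10.58 in control). Kit was at 8.12 to 8.19 in the knockout, against 8.55 to 8.68 in control, Sca1 (Ly6a) had no probe set named here, and the lineage markers Ms4a1, Cd3d, Ncr1, Gzma, Adgre1 and Alas2 were dim. Of 6 monocyte, macrophage and dendritic cell markers Ly6c2 and Ccr2 rose and Itgam fell, and the summed level, to which Ly6c2 gave most in the knockout, was 8.94 to 9.01 there, against 7.63 to 7.71 in control. Of 4 T and NK cell markers only Nkg7 rose, at 8.48 to 8.64 in the knockout, against 8.003 to 8.10 in control, while Cd3e, Cd4 and Cd8a did not pass. Their summed level, carried mainly by Nkg7, was 8.57 to 8.72 in the knockout, against 8.13 to 8.21 in control. Of 4 B cell markers 1 rose and 1 fell (6.20 to 6.23, against 6.10 to 6.11 in control). The erythroblast marker Slc4a1 was at 0.08 and did not pass. The part of these markers in the changes of the replication genes was not tested.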

How the data were processed

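Per the submitters' processing notes, RMA was the authors' tool. The deposited log2 values, 1 column per array, were used as given. RMA corrects background, equalises intensity distributions and summarises probes, so it would hide a shift common to most transcripts. The log base was read as 2 from the range, and version and genome build are not given in the sources used here. Arrays have no counts, and their number, 3 per group, limits precision.

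Of 65956 probe sets, 31221 were named for 1 gene, counting synonyms of the same Entrez gene as 1, 1529 for several and 33206 for none, through GEO's platform annotation and a RefSeq table (GRCm38.p6). The brightest probe set stood for each gene. Genes with a mean under the median of all probe sets (1.92) were left out, 11656 of 30748. The test was limma's (version 3.58.1, R 4.3.3, lmFit and eBayes, two-sided, Benjamini-Hochberg over 19092 genes), and the code was tested on simulated data. Changes are knockout minus control means, with the SE from limma.

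Members and lists were chosen with earlier results of these data known. Array values are given for the highest and lowest change in each role group, members that fell and the 6 smallest p, and in other lists the 4 smallest p and the extremes were named, besides a set always reported (E2f1, E2f2, E2f3, E2f8, Ccna2, Cdk2, Cdkn1a, Gmnn, Cdc7, Dbf4, Mki67 and Kit, with Ccnd1 sharing its probe set with another gene). Other genes named were chosen after their values were seen. Alternatives covered the dim filter, scaling, probe set choice, variance model, array weights, a replicate block and leaving out each array.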

Additional observations from a re-analysis of the deposited data

How the results depend on the processing

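In 14 alternative fits, 16 of the 24 members that rose and the 1 that fell kept their calls throughout, and 13 of the 16 members that did not pass never passed. The exceptions were Orc6, Gins4 and Rfc2. The number of members that rose ran from 16 to 24 when an array was left out and from 21 to 26 in the other fits, and 1 member fell in each. The member median ran from 0.20 (without knockout replicate 3) to 0.28 (0.278 without knockout replicate 2). Genes called in all ran from 4163 to 5139 with an array left out, against 5945, and without knockout replicate 3 those that rose numbered 2333, against 3650. Among named genes, only some that did not pass changed sign. Pola1 was at 0.0053 after a second quantile normalization, 0.0021 with array weights and ran from -0.0720 to 0.0158 with an array left out. Pcna was at -0.0023 with median centring and -0.0656 after a second quantile normalization, and ran from -0.0378 to 0.0361 with an array left out. Rfc3 was at -0.0065 with median centring and ran from -0.0854 to 0.107 with an array left out. Uhrf1 was at -0.0069 after a second quantile normalization and ran from -0.0041 to 0.0764 with an array left out. With an array left out, Chek1 ran from -0.183 to 7.77e-04 and E2f3 from -0.0016 to 0.114. Cdk2 was at -0.0029 with median centring and ran from -0.0199 to 0.0347 with an array left out. Beyond the fewer arrays in the fits that left out an array, the cause was not tested.

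Equal replicate numbers did not pair the arrays by the criterion used, a correlation of deviations over 0.1 for every number. The correlations were 0.219, 0.333 and 0.0999 for replicates 1, 2 and 3, and knockout replicate 3 correlated better with control replicate 1 (0.129). With the replicate number as a block 26 members rose and 1 fell, Rfc2 and Gins4 being added, and 7212 genes were called. The same alternatives for role groups and other lists were added after the data had been seen.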
